A study of Homo sapiens with 32 samples.

Results

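The enzymes that place acetyl groups on histone lysines, those that remove them and the proteins that read them were examined in THP-1 cells with and without active ATP citrate lyase (ACLY). The group held 34 genes, namely 15 acetyltransferases (writers), 17 deacetylases (erasers) and 2 bromodomain proteins (readers), of 60107 genes in the deposited tables. Members were taken by gene symbol where the mean over the 32 libraries was at least 10 normalized counts. All 34 passed, and they were part of the 12406 genes tested.

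Writers such as EP300, CREBBP and the KAT families transfer the acetyl group of acetyl-CoA onto histone lysines, which loosens the contact between DNA and histones. Erasers fall into zinc-dependent HDACs and NAD-dependent sirtuins, several of which work mainly on non-histone substrates. Bromodomain readers such as BRD2 and BRD3 bind acetylated tails and recruit the transcription machinery. ACLY cleaves citrate into acetyl-CoA and oxaloacetate in the cytosol and nucleus, and so supplies the substrate that the writers use. In monocytes and macrophages these enzymes are known for their part in switching inflammatory genes on and off.

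THP-1 is a monocytic cell line derived from a patient with acute myeloid leukemia. The 4 lines were each sequenced from 4 unstimulated libraries and 4 libraries of cells given 100 ng/ml lipopolysaccharide (LPS) for 3 hours, which made 8 groups and 32 libraries. The WT line carried reintroduced wild type ACLY, the HA line the catalytically inactive ACLY H760A mutant and the SA line the ACLY S455A mutant, which cannot be phosphorylated at that serine. These 3 lines came from knockout THP-1 cells that received the construct in a lentivirus and were selected with puromycin, whereas the KO line was the ACLY knockout itself, and no source states that it was transduced or selected. The endogenous gene was thus knocked out in every line, controls included. Each genotype was represented by 1 line, so the effect of a genotype and the history of its line cannot be told apart, and p-values measure only the spread between libraries, which no label ties to separate experiments.

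Expression was measured with a 3′ tag method, in which reads come from the end of each transcript, and the libraries held 6504099 to 14750815 reads on genes (median 10247620). Values are normalized counts, that is reads divided by a size factor estimated jointly over the 32 libraries. A tag at the 3′ end does not show whether a coding sequence is disrupted and so does not check the knockout. ACLY had a mean of 103 ± 11.5 (SD, n = 4) in unstimulated WT and 89.7 ± 17.7 in KO cells. LPS raised TNF by 0.89 and IL1B by 2.07 on the log2 scale as a mean over the 4 lines (limma, adjusted p = 9.04e-10 and 4.93e-09). TNFAIP3 rose by 1.195 (adjusted p = 1.25e-05). NFKBIA at 0.925 and CXCL8 at 1.36 did not pass the limit of 0.01 (adjusted p = 1.12e-02 and 1.90e-02). In WT cells alone none of these LPS targets passed, with TNF at 0.63 (adjusted p = 6.58e-02) and IL1B at 1.35 (adjusted p = 0.270). All 9 monocyte markers had a mean of at least 10 and together 12255 to 43251 normalized counts, whereas 0 of 5 T cell, 1 of 4 B cell and 0 of 4 epithelial markers reached that mean, with CD3E and CD3G at 0 in every library. A single library, SA LPS replicate 1, stood apart. Its genes lay a median of 0.73 (log2) from the mean of their group, against 0.13 to 0.44 in the other 31, of which KO replicate 3, HA LPS replicate 1 and KO LPS replicate 3 were the next farthest at 0.44, 0.36 and 0.36.

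Promoter sequence is shown for the erasers HDAC6 and HDAC7, whose counts differed between lines with and without ACLY activity, and for the corepressor subunit TBL1X and the bromodomain protein SP110, which showed the largest such differences among the partner genes that passed the test. Each line holds the 250 bases before 1 transcript start, the one that comes first in the RefSeq listing (GRCh38.p14, strand as transcribed, 5′ to 3′). RefSeq lists 3 starts for HDAC6, 2 each for TBL1X and SP110 and 1 for HDAC7. For HDAC6 the start used lies downstream of the others. The HDAC6 and HDAC7 windows lie inside the genes as annotated in GENCODE 44, and the SP110 window overlaps its gene in part. The windows lie at chrX:48801817-48802066 (plus strand) for HDAC6, chr12:47819904-47820153 (minus) for HDAC7, chrX:9463045-9463294 (plus) for TBL1X and chr2:230225637-230225886 (minus) for SP110. Capitals mark matches on either strand to a GC box (GGGCGG), an NF-kB motif (GGGA and CC with any 4 bases between), an interferon-stimulated response element core (GAAA and GAAA with any 2 bases between), a cAMP response element (TGACGTCA) or an E-box (CACGTG).
HDAC6: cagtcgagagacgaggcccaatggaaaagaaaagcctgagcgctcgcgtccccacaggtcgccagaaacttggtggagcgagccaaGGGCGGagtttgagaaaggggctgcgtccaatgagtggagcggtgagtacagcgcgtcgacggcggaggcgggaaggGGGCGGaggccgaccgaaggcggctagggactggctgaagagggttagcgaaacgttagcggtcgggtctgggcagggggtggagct
HDAC7: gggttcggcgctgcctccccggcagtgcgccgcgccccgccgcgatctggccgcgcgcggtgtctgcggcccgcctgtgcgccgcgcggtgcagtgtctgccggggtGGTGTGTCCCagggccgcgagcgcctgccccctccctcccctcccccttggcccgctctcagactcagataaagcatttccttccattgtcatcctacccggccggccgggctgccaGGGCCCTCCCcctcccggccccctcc
TBL1X: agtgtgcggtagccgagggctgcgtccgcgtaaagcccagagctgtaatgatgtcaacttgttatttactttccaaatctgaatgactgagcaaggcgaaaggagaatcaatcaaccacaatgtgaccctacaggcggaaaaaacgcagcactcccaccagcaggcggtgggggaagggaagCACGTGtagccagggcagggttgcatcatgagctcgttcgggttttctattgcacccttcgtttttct
SP110: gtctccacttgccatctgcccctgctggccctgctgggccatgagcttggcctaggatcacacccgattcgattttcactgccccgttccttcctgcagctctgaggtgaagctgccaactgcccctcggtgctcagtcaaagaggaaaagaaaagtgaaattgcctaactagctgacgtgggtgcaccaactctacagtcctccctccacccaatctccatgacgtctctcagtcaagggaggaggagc

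The HDAC6 window shown held 2 GC boxes, the HDAC7 window 2 NF-kB matches and the TBL1X window 1 E-box, while no match occurred in the SP110 window. Matches differed at the other listed starts. There the HDAC6 windows held 1 and 3 GC boxes and the SP110 window 1 NF-kB match. The other TBL1X window held 2 GC boxes and 1 NF-kB match but no E-box. Of the 34 members, 28 had a promoter in the RefSeq table, with 49 windows between them. A GC box was found in 53.1% of these windows and in 42.6% of all 35116 windows, and an NF-kB match in 28.6% against 22.6%. The E-box was found in 6.12% against 6.34%, and the response element core in 0 of 49 windows against 3.02% of all. These are matches of letters and were not tested for binding.

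The members differed less between the 8 groups of libraries than the genes tested as a whole, and also less within them. The span between the highest and lowest group mean of a gene had a median of 0.56 (log2) over the 34 members, against 0.76 over all genes tested and 0.70 over the 10198 genes in the members' range of mean counts. The SD between libraries of a group had a median of 0.30 (log2) over the members, against 0.42 and 0.39 for the same sets of genes, so the smaller span went with a smaller spread. The members' mean counts ran from 26.2 to 3284, so no set was matched on count level. The part of count level in these differences was not tested. The span was smallest for ELP3, the catalytic subunit of the elongator complex, at 0.15, for HDAC2, a class I deacetylase, at 0.17, and for the coactivator acetyltransferase EP300 at 0.23. HDAC6, the cytoplasmic deacetylase best known for acting on tubulin, had the largest span at 1.21 and KAT2B, the coactivator acetyltransferase also called PCAF, the next at 1.17. KAT2B was a low-count gene whose libraries within a group spread by 0.51 (SD, log2), against 0.34 for HDAC6, and no difference in KAT2B passed the test.

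**Figure D1:**
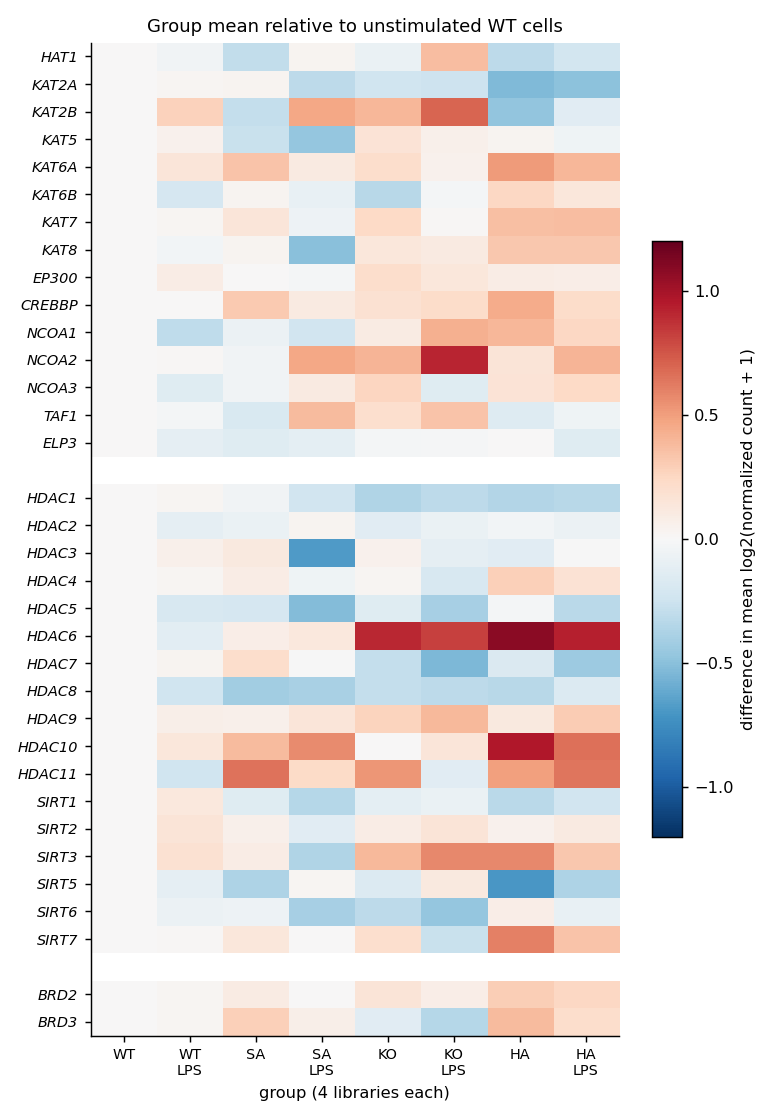
Group means of the 34 members (rows: writers at the top, erasers in the middle, readers at the bottom) in the 8 groups (columns, 4 libraries each), as the difference in mean log2(normalized count + 1) from unstimulated WT cells, in color. Differences run from -0.69 (SIRT5 in HA cells) to 1.08 (HDAC6 in HA cells), and most fields of the plot are pale.

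The first comparison asked whether LPS changed the genes of the acetylation machinery. No writer, eraser or reader rose or fell at an adjusted p below 0.01 (limma, Benjamini-Hochberg over all genes tested) in any line, and none did in the mean of the 4 lines. In that mean 1.78% of all genes tested were called, and 0 of 34 members, with 4 members and 10.4% of all genes at an unadjusted p below 0.05. By line, the test called 0.25% of all genes in WT, 0.572% in KO, 0.403% in HA and 0.492% in SA cells, and 0 members in each, with 0, 2, 0 and 4 members at an unadjusted p below 0.05. That lower bar was met by 1.61%, 5.42%, 4.77% and 9.85% of all genes. The limma-voom test on whole reads also called 0 members in all 5. The 95% interval of the mean LPS difference lay within 1.5-fold in either direction for 30 of 34 members, against 66.9% of all genes tested. Such shares were not matched on count level, here or in the comparisons of lines below. The members outside were KAT2B, HDAC11, HDAC3 and SIRT5.

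Among the writers, the mean LPS difference had a median of -0.07 (log2) over 15 genes, against -0.01 over all genes. NCOA2, a nuclear receptor coactivator of the p160 family, is described first. In WT cells it had 139, 121, 135 and 154 normalized counts without and 152, 163, 115 and 129 with LPS. In KO cells it had 153, 249, 181 and 158 without and 369, 245, 213 and 231 with LPS. These ranges overlapped in both lines. In HA cells NCOA2 stood at 207, 139, 146 and 127 without and 160, 234, 196 and 150 with LPS. In SA cells it stood at 110, 169, 171 and 96.6 without and 229, 181, 195 and 156 with LPS. The mean LPS difference was 0.32 (log2, 95% interval 0.10 to 0.54, adjusted p = 0.136, limma) and did not pass. By line the estimates were 0.02 in WT, 0.51 in KO, 0.26 in HA and 0.51 in SA cells, with intervals up to 0.95 in both KO and SA cells, and none passed.

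KAT2B had 28.0 to 50.6 normalized counts in unstimulated WT cells and 29.7 to 62.2 after LPS, 32.5 to 63.3 and 33.4 to 83.0 in KO, 20.2 to 28.6 and 19.1 to 52.9 in HA, and 19.9 to 39.3 and 23.6 to 92.8 in SA cells. Ranges with and without LPS overlapped in each line. The mean LPS difference of KAT2B was 0.41 (95% interval 0.04 to 0.79, adjusted p = 0.381, limma). HAT1, which acetylates newly made histone H4 before it is deposited, ran from 323 to 426 without and 297 to 392 with LPS in WT cells. In KO cells HAT1 ran from 276 to 459 without and from 338 to 608 with LPS. Its mean LPS difference was 0.21 (0.01 to 0.40, adjusted p = 0.423). EP300 and CREBBP, the paired general coactivators, differed by -0.01 (-0.15 to 0.14) and -0.10 (-0.31 to 0.11), so a 1.5-fold change of either lay outside the interval.

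Among the erasers the median LPS difference was -0.08 over 17 genes. HDAC11, the single class IV enzyme, had the lowest estimate at -0.29 (95% interval -0.69 to 0.10, adjusted p = 0.711, limma), at a level of 10.6 to 70.6 normalized counts in single libraries. Its reads give a counting SD of 0.31 (log2, Poisson), against a spread between libraries of a group of 0.53. HDAC5, a class IIa enzyme that shuttles between nucleus and cytoplasm, followed at -0.27 (-0.51 to -0.03, adjusted p = 0.382). The class I enzymes HDAC1, HDAC2 and HDAC3 differed by -0.02 (-0.18 to 0.14), 0.00 (-0.12 to 0.12) and -0.19 (-0.59 to 0.21). HDAC3 is the catalytic subunit of the NCoR and SMRT corepressor complexes, and its libraries within a group spread by 0.59 (SD, log2). Without SA LPS replicate 1 its LPS difference was 0.00, and without the 4 farthest libraries it was 0.01.

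The readers BRD2 and BRD3 differed by -0.05 (-0.21 to 0.12) and -0.14 (-0.34 to 0.05) with LPS. BRD2 had 2774, 2861, 3925 and 2610 normalized counts in unstimulated WT cells and 2937, 2890, 3630 and 2806 after LPS. In KO cells BRD2 had 3241, 3088, 4297 and 2877 without and 2516, 3007, 4508 and 2998 with LPS. The groups overlapped in full, and in both lines replicate 3 was the highest library with and without LPS. BRD3 ran from 2056 to 2916 without and 2111 to 3162 with LPS in WT cells, and from 1739 to 2859 and 1513 to 2598 in KO cells.

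**Figure D2:**
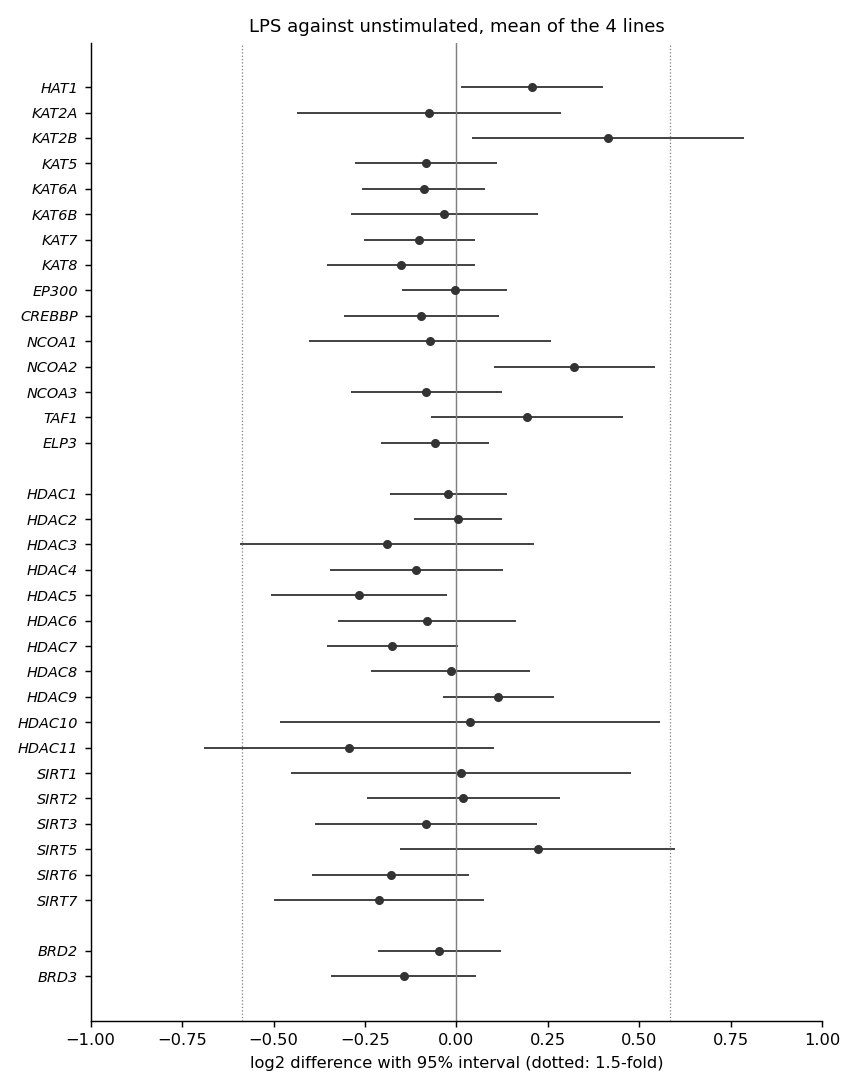
Mean LPS difference over the 4 lines for each of the 34 members, as points with 95% intervals on the log2 scale (writers at the top, erasers in the middle, readers at the bottom; dotted lines at 1.5-fold). Estimates run from -0.29 for HDAC11 to 0.41 for KAT2B, and 30 of 34 intervals lie between the dotted lines.

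Whether the LPS response of a member depended on the line was tested with interaction terms. For KO against WT cells 0.00806% of all genes passed, and for HA and SA against WT cells 0.0% passed. In each of the 3 tests 0 members passed, and 0 members had an unadjusted p below 0.05 (limma), a bar met by 1.41%, 1.14% and 3.68% of all genes. The limma-voom test also called 0. In KO cells the estimates ran from -0.48 for SIRT7 (log2, 95% interval -1.30 to 0.33), a nucleolar sirtuin, to 0.63 for NCOA1 (-0.30 to 1.56), so these intervals were wide.

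The comparison of lines asked whether the machinery differed where ACLY was absent or inactive. HDAC6 was the member that differed most. In unstimulated WT cells it had 155, 158, 224 and 122 normalized counts, and in SA cells 161, 190, 156 and 176. In KO cells it had 278, 272, 418 and 265, and in HA cells 360, 394, 331 and 291. Every library of the KO and HA lines was above every library of the WT and SA lines. No overlap with WT cells alone was found for 12.0% of all genes in KO and 17.6% in HA cells. The share for the 4 lines together is not given here. The mean was 165 ± 42.7 (SD, n = 4) in WT, 171 ± 15.5 in SA, 308 ± 73.4 in KO and 344 ± 44.0 in HA cells.

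After LPS the order of HDAC6 was similar. WT cells had 165, 126, 157 and 145 normalized counts and SA cells 336, 152, 131 and 143. KO cells had 236, 253, 387 and 282 and HA cells 428, 245, 291 and 295. Here the groups overlapped through SA LPS replicate 1 alone, at 336. Over all 32 libraries, HDAC6 was the one member whose 16 libraries without ACLY activity (236 to 428) did not overlap the remaining 15 (122 to 224) once that library was left out, a pattern found in 1.26% of all genes tested. With that library the ranges overlapped, and 0 members and 0.814% of all genes showed no overlap.

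HDAC6 was 2.12-fold higher in HA than in WT cells without LPS (log2 1.08, 95% interval 0.60 to 1.57, adjusted p = 4.93e-03, limma) and 2.08-fold higher with LPS (log2 1.06, 0.57 to 1.55, adjusted p = 7.09e-03). In these comparisons 2.52% and 2.02% of all genes tested were called. The call without LPS was lost without HA replicate 1, 2 or 3 or WT replicate 1, 2 or 4 (adjusted p up to 3.02e-02), and that with LPS without HA replicate 1, 3 or 4 or any 1 WT replicate (adjusted p up to 4.94e-02), while the estimates stayed between 0.90 and 1.24. Both were also lost when WT and HA libraries alone were fitted (adjusted p = 1.11e-02 and 1.65e-02). Adding the replicate as a block to that fit also lost both (adjusted p = 4.14e-02 and 3.42e-02). In KO cells the estimates were 0.91 (0.42 to 1.40, adjusted p = 2.03e-02) without and 0.94 (0.46 to 1.43, adjusted p = 1.25e-02) with LPS, and did not pass the limit. Here 2.9% and 3.47% of all genes were called, and without LPS 0 of 34 members, with 2 members and 14.3% of all genes at an unadjusted p below 0.05. Same-numbered WT and KO libraries deviated alike from their group means (r 0.334 to 0.682 without and 0.179 to 0.723 with LPS). This pairing was read from these data, as no label states it. With the replicate as a block in these groups alone HDAC6 passed, at an adjusted p of 1.25e-03 without and 8.25e-04 with LPS. In SA cells HDAC6 differed from WT by 0.08 (-0.41 to 0.57) without and 0.25 (-0.24 to 0.74) with LPS, where 0.0% of all genes were called. The difference with LPS was -0.06 without SA LPS replicate 1.

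In the joint contrast of KO and HA against WT and SA cells, HDAC6 rose by 0.95 (log2, 95% interval 0.61 to 1.30, adjusted p = 1.95e-04, limma) without and by 0.87 (0.53 to 1.22, adjusted p = 5.47e-04) with LPS, that is 1.94-fold and 1.83-fold. The test called 5.93% of all genes without LPS and 1 of 34 members, and 6.43% with LPS and 2 of 34 members. HDAC6 passed both when any 1 of the 32 libraries was left out. In a fit of the LPS libraries alone it did not pass (adjusted p = 1.02e-02), while in one of the unstimulated libraries alone it did (adjusted p = 1.78e-04). With the replicate block added, HDAC6 passed in both fits (adjusted p = 8.53e-03 with and 3.48e-04 without LPS). It was also among the members that were highest of their group in each of the 4 libraries farthest from their groups. Without these 4 the differences were 0.88 (adjusted p = 1.48e-06) and 0.88 (adjusted p = 5.95e-06). HDAC6 lies at chrX:48801377-48824982 on the plus strand (GRCh38, GENCODE 44), and no other annotated gene overlaps its last 1000 bases.

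**Figure D3:**
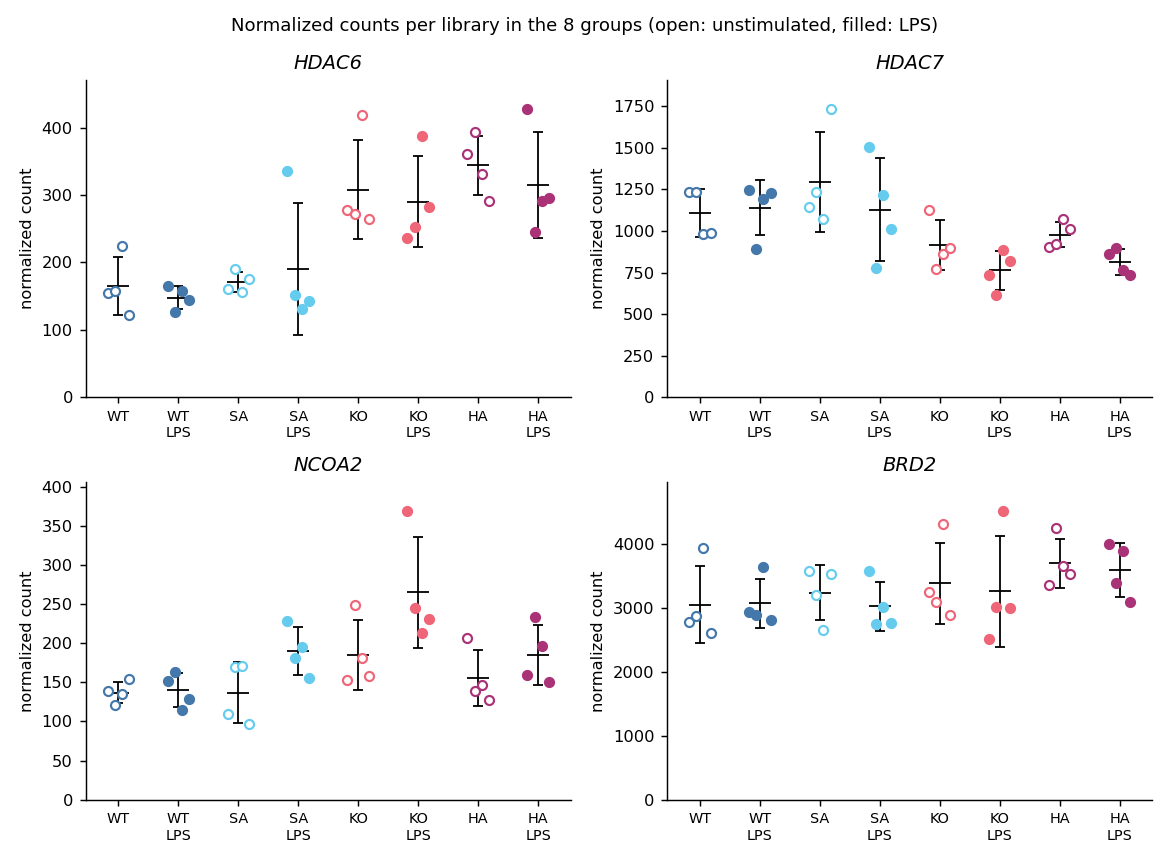
Normalized counts of HDAC6, HDAC7, NCOA2 and BRD2 in each of the 32 libraries (points, open without and filled with LPS), with the mean and SD of each group of 4 as bars. HDAC6 points of KO and HA cells (236 to 428) lie above those of WT and SA cells (122 to 224) except for 1 SA library after LPS at 336, while the BRD2 groups overlap throughout.

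HDAC7, a class IIa deacetylase with little enzymatic activity of its own that represses MEF2 targets, was the member that fell. After LPS it had 1246, 893, 1194 and 1230 normalized counts in WT cells and 1508, 776, 1215 and 1012 in SA cells. In KO cells HDAC7 had 734, 614, 887 and 822, and in HA cells 859, 897, 767 and 735. Most KO and HA libraries were below most WT and SA libraries, and the groups overlapped through WT replicate 2 at 893 and SA replicate 2 at 776.

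In the joint contrast with LPS, HDAC7 fell by 0.51 (log2 95% interval -0.76 to -0.25, adjusted p = 6.12e-03, limma), to 0.705 of its level in WT and SA cells. Without LPS the means were 1109 ± 144 in WT, 1296 ± 300.0 in SA, 914 ± 150.0 in KO and 979 ± 77.9 in HA cells (SD, n = 4), and the difference was -0.33 (-0.59 to -0.08, adjusted p = 8.58e-02). By line after LPS, KO differed from WT by -0.58 (-0.94 to -0.22, adjusted p = 4.44e-02) and HA by -0.48 (-0.84 to -0.12, adjusted p = 0.140). With the replicate block in the WT LPS and KO LPS groups alone, the KO difference passed, at an adjusted p of 1.04e-03. With that block in a fit of the LPS libraries alone, the joint difference did not pass (adjusted p = 1.93e-02). The joint call was lost without HA LPS replicate 3 or 4, KO LPS replicate 1 or 2, SA LPS replicate 1 or 3 or WT LPS replicate 1, 3 or 4 (-0.43 to -0.59 over the 32 fits, adjusted p up to 1.82e-02), without the 4 farthest libraries (-0.48, adjusted p = 1.07e-02) and in a fit of the LPS libraries alone (adjusted p = 3.15e-02). SLC48A1 lies on the other strand within the last 1000 bases of HDAC7 (chr12:47782722-47833132, minus strand), and the strand setting of the counting is not given in the sources used here.

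NCOA2 was the writer that passed. After LPS it had 213 to 369 normalized counts in KO against 115 to 163 in WT cells, so every KO library was above every WT library. The difference was 1.86-fold (log2 0.90, 95% interval 0.45 to 1.34, adjusted p = 8.34e-03, limma). HA and SA cells after LPS lay between, with means of 185 ± 38.2 and 190 ± 30.4 (SD, n = 4), and differed from WT by 0.40 (-0.05 to 0.84) and 0.44 (0.00 to 0.89), neither of which passed. Without LPS, KO differed from WT by 0.41 (-0.03 to 0.85). The NCOA2 call was kept in 16 of the 32 fits that left out 1 library (0.73 to 0.99, adjusted p up to 6.23e-02) and was lost, among others, when any WT or WT LPS library was left out, and on the deposited scale (0.80, adjusted p = 2.03e-02). When WT LPS and KO LPS libraries alone were fitted, it did not pass without the replicate block (adjusted p = 3.62e-02) and passed with it (adjusted p = 1.07e-03).

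Non-overlap of 4 against 4 libraries was common in these line comparisons and is given here only as a description. It held for 2 members in KO against WT cells without LPS and 6 with LPS, where it held for 12.0% and 13.9% of all genes tested. It held for 6 members in HA cells without and 6 with LPS, against 17.6% and 13.5% of all genes. HDAC1, the catalytic subunit of the Sin3, NuRD and CoREST complexes, was among them in all 4 comparisons and was lower each time, by -0.33 to -0.37, with adjusted p from 0.161 to 0.271. In the joint contrast HDAC1 differed by -0.34 (-0.57 to -0.11, adjusted p = 4.59e-02) without and -0.22 (-0.45 to 0.01) with LPS, and the difference without LPS passed on the deposited scale.

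The median difference in the joint contrast was 0.15 (log2) for writers, 0.01 for erasers and 0.08 for the 2 readers without LPS, against -0.03 for all genes. With LPS these medians were 0.10, 0.03 and 0.02 against 0.01. On the scale as deposited, where the median of all genes was -0.13 without and -0.10 with LPS, they were 0.05, -0.09 and -0.03 without and 0.00, -0.07 and -0.08 with LPS. The 95% interval lay within 1.5-fold for 21 of 34 members without and 21 with LPS, against 37.3% and 38.4% of all genes. Of the writers, 12 of 15 estimates were above 0 in each contrast (11 and 7 on the deposited scale) and 0 of 15 passed (limma), with 1 and 3 at an unadjusted p below 0.05, against 23.5% and 24.0% of all genes. The limma-voom test also called 0 of the 15. KAT8, the writer of histone H4 lysine 16 acetylation, came closest with LPS, at 0.49 (0.20 to 0.77, adjusted p = 2.08e-02), and NCOA1, another p160 coactivator, stood at 0.60 (0.14 to 1.07, adjusted p = 8.85e-02). Both genes were low in SA LPS replicate 1, on the side with ACLY activity, which adds to both differences. There KAT8 had 70.4 normalized counts against 123 to 173 in the rest of its group, and NCOA1 31.7 against 112 to 169.

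No member passed between WT cells and SA cells, which keep ACLY activity. The limma test called 0 of 34 members and 0.0% of all genes without and with LPS, with 1 and 3 members at an unadjusted p below 0.05 against 3.59% and 5.21% of all genes, and limma-voom also called 0 members. The intervals lay within 1.5-fold for 16 members without and 14 with LPS, against 26.0% and 25.7% of all genes, and for the remaining members a difference of that size was still within the interval.

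**Figure D4:**
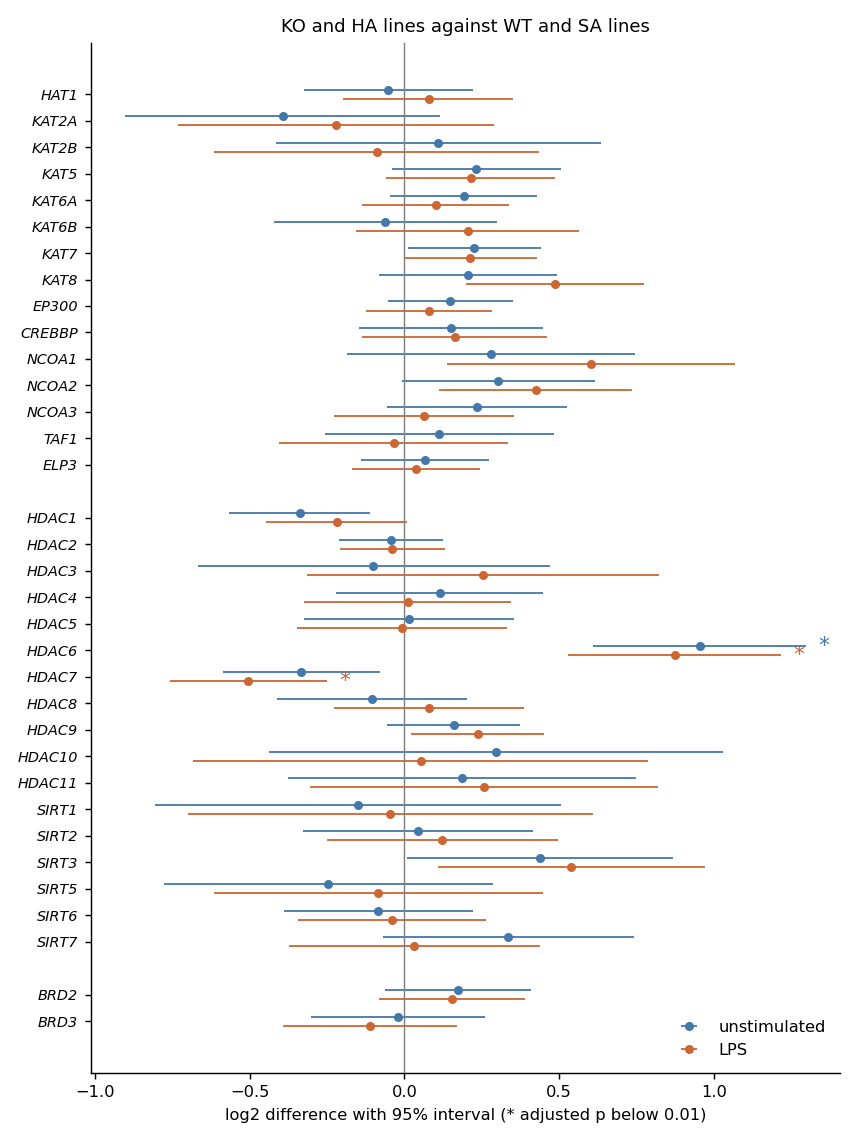
Difference between lines without ACLY activity (KO and HA) and lines with it (WT and SA) for each of the 34 members, as points with 95% intervals on the log2 scale, without LPS in blue and with LPS in orange (* adjusted p below 0.01). HDAC6 stands apart at 0.95 and 0.87, HDAC7 is marked with LPS at -0.51, and most other intervals include 0.

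Several members differed widely in the libraries that stood apart. In SA LPS replicate 1, HDAC10, a polyamine deacetylase, had 546 normalized counts against 70.7 to 93.1 in the other 3 libraries of its group. HDAC3 had 70.4 against 509 to 620 and KAT2A, the writer of the SAGA and ATAC complexes, 78.7 against 307 to 356. In that library 16 of 34 members were above, 13 below and 5 within the range of the other 3, and 12 lay more than 2-fold from their mean. The share of all genes placed so in this library was not counted. Over all genes it lay a median of 0.73 (log2) from its group mean, so these counts are given only as a description.

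Some of these members also stood out in KO replicate 3, KO LPS replicate 3 and HA LPS replicate 1. HDAC10 stood at 184 against 53.7 to 88.6 in KO replicate 3, and KAT2A at 127 against 290 to 310. SIRT1, an NAD-dependent nuclear deacetylase, stood at 49.3 against 209 to 246 in that library. In all 4 libraries KAT6A, HDAC6, HDAC10, SIRT7, BRD2 and BRD3 were the highest of their group, and KAT2A, HDAC1, HDAC3, SIRT1 and SIRT2 the lowest. That is 6 and 5 of 34 members, against 15.5% and 17.8% of all genes tested that were highest or lowest in all 4. Their part in the line differences of HDAC6 and HDAC1 was not tested beyond leaving them out. MAPK12 overlaps the last 1000 bases of HDAC10 on the same strand, so the tag may count both.

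The partner genes were read from 3 further lists, with 116 genes listed and 113 tested. None of 48 subunits of acetyltransferase complexes (SAGA, ATAC, NuA4, MOZ and others) passed in any of the 16 contrasts by limma, with 5 and 7 at an unadjusted p below 0.05 in the joint contrasts without and with LPS, a bar met by 23.5% and 24.0% of all genes. Of 33 subunits of deacetylase complexes, 3 passed in the joint contrast without LPS (2 higher, 1 lower) and 5 with LPS (3 higher, 2 lower). Of 32 other acetyl-lysine readers, 3 passed without (2 higher, 1 lower) and 4 with LPS (2 higher, 2 lower). The counts of these 2 lists stand against the 5.93% and 6.43% of all genes called in the same contrasts.

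TBL1X, a subunit of the NCoR and SMRT corepressor complexes that hold HDAC3, showed the largest difference among the deacetylase partners that passed. Without LPS it had 192, 227, 333 and 256 normalized counts in WT and 292, 317, 259 and 309 in SA cells. In KO cells TBL1X had 109, 85.9, 103 and 110, and in HA cells 93.8, 130, 106 and 88.5. With LPS it had 237 to 333 in WT and 234 to 774 in SA cells, against 79.6 to 144 in KO and 80.3 to 105 in HA cells. All 16 libraries with ACLY activity (192 or more) were above all 16 without it (144 or less), a pattern of no overlap seen in 0.814% of all genes tested.

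TBL1X fell by 1.38 (log2, 95% interval -1.75 to -1.01, adjusted p = 3.12e-06, limma) in the joint contrast without LPS and by 1.59 (-1.97 to -1.22, adjusted p = 2.68e-07) with LPS. By line it fell by 1.27 in KO and 1.24 in HA cells without LPS (adjusted p = 1.64e-03 and 2.88e-03), calls kept in 31 and 28 of the 32 fits that left out 1 library. The joint calls held in each of these fits. GPR143 lies on the other strand within the last 1000 bases of TBL1X. HDAC3 itself differed by -0.10 (-0.67 to 0.47) without and 0.25 (-0.32 to 0.82) with LPS in the joint contrast, and by -0.12 with LPS once SA LPS replicate 1 was left out.

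SP110, a bromodomain and PHD finger protein of nuclear bodies that interferon induces, showed the largest difference among the other readers that passed. Without LPS it had 706, 677, 950 and 703 normalized counts in WT and 999, 962, 907 and 1069 in SA cells. In KO cells SP110 had 2728, 2771, 3670 and 2600, and in HA cells 2757, 1962, 1830 and 1200. All KO and HA libraries were above all WT and SA libraries, and the HA libraries spread from 1200 to 2757. The share of all genes with this lack of overlap is not given here. With LPS it had 1081 to 1163 in WT, 1382 to 2843 in SA, 2840 to 4205 in KO and 1620 to 3636 in HA cells, and the SA group overlapped the HA group and, through SA LPS replicate 1 at 2843, the KO group.

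In the joint contrast SP110 rose by 1.44 (log2, 95% interval 1.11 to 1.76, adjusted p = 1.80e-07, limma) without and by 0.99 (0.67 to 1.32, adjusted p = 5.27e-05) with LPS. LPS raised SP110 by 0.51 (0.28 to 0.74, adjusted p = 6.00e-03) as a mean over the lines, a call lost in 15 of the 32 fits that left out 1 library. SP100, its relative in nuclear bodies, rose by 0.39 without and 0.32 with LPS (adjusted p = 1.56e-03 and 8.28e-03). These calls were kept in 32 and 12 of the 32 fits, and neither passed on the deposited scale (0.28 and 0.21, adjusted p = 2.00e-02 and 8.34e-02). ZMYND8, a bromodomain corepressor, fell by 0.45 and 0.60 (adjusted p = 4.83e-03 and 2.40e-04), which was kept in 26 and 32 of the 32 fits. BRD9, a subunit of the ncBAF remodeling complex, fell by 0.92 with LPS (adjusted p = 8.15e-03), a call kept in 18 of the 32 fits (-1.03 to -0.70, adjusted p up to 2.25e-02). It was lost, among others, without SA LPS replicate 1. Leaving that library out lowered the highest BRD9 count of the WT and SA lines from 7282 to 4162. ZDHHC11 overlaps the last 1000 bases of BRD9 on the same strand, so the tag may count both.

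Smaller differences passed among the remaining deacetylase partners. The Sin3 subunits ARID4A and SAP18 rose by 0.40 and 0.27 without LPS in the joint contrast (adjusted p = 5.13e-03 and 8.75e-03, limma). With LPS, ARID4A rose by 0.36, ARID4B by 0.34 and SAP18 by 0.28, while MTA3, a NuRD subunit, fell by 0.76 (adjusted p = 9.35e-03, 2.08e-03, 7.53e-03 and 5.02e-03). LPS lowered MIDEAS, a scaffold of the mitotic deacetylase complex, by 0.55 as a mean over the lines (adjusted p = 1.05e-03), which was the only call of the LPS mean among the 33 deacetylase partners and held in each of the 32 fits that left out 1 library. In the joint contrasts the ARID4A calls were kept in 23 of these fits without and 8 with LPS, and the SAP18 calls in 12 and 20. The joint MTA3 call was kept in 26 and the joint ARID4B call in all 32. The joint ARID4A, ARID4B and SAP18 calls were lost on the deposited scale (adjusted p from 3.81e-02 to 0.111). By line with LPS, ARID4A rose by 0.60 in HA and ARID4B by 0.46 in KO against WT cells (limma, adjusted p = 6.76e-03 and 4.54e-03). These were kept in 25 and 27 of the 32 fits. RBM34 overlaps the last 1000 bases of ARID4B on the same strand.

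**Figure D5:**
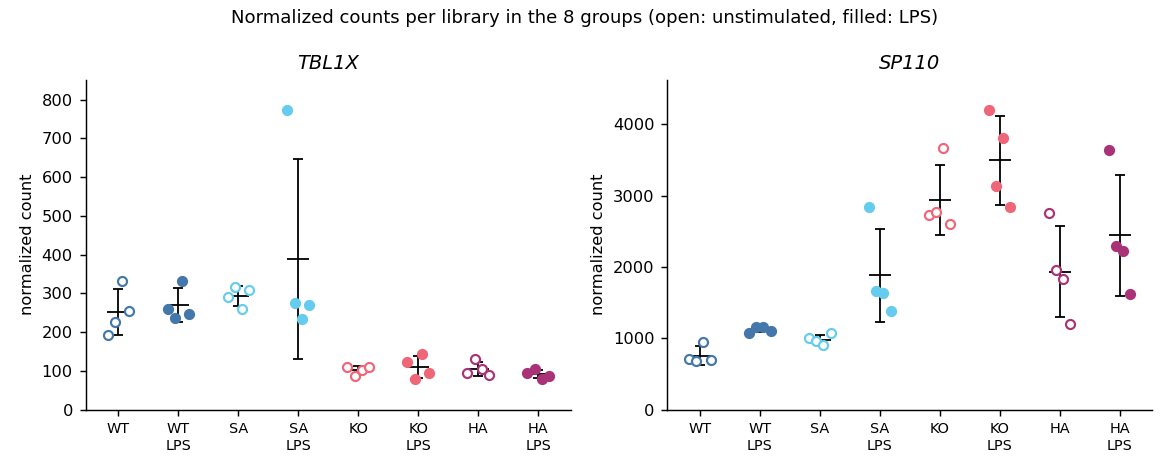
Normalized counts of TBL1X and SP110 in each of the 32 libraries (points, open without and filled with LPS), with the mean and SD of each group of 4 as bars. TBL1X points of KO and HA cells (144 or less) lie below all those of WT and SA cells (192 or more), and SP110 points of KO cells (2600 to 4205) lie above all unstimulated WT and SA cells.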

How the data were processed

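RNA of THP-1 cells (32 libraries, 8 groups of 4) was sequenced by the authors with a QuantSeq 3′ kit, trimmed with Bbduk, aligned with STAR to GRCh38, counted with HTSeq-count and normalized with DESeq2; tool versions and the annotation are not given in the sources used here. The deposited values are normalized counts, that is reads divided by a size factor set separately for each line. Dividing by the value of 1 read gave whole reads for 100% of values (tolerance 0.05 reads). Of 60199 rows, 92 were spike-in rows with 1 read in all libraries and were left out. No column of samples was left unused (0).

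Reads were rescaled with median-of-ratios factors over the 12406 genes with a deposited mean of at least 10 in the 32 libraries. Deposited and joint factors differed by up to 14.3%. Log2(normalized count + 1) was fitted with limma 3.58.1 (R 4.3.3; lmFit and eBayes with trend) with a mean per group, and p-values were adjusted by Benjamini-Hochberg over the 12406 genes, with a limit of 0.01. Fold changes are on that scale, which understates the change of low genes. The 16 contrasts were LPS per line and as their mean, each mutant or knockout line against WT (unstimulated and after LPS), KO and HA jointly against WT and SA, and 3 interactions. The fit was tested on simulated data. Python 3.11, pandas 2.3.3 and numpy 2.4.6 did the rest. At 6504099 to 14750815 reads, the counting SD of a member (Poisson, log2) reached 0.31 for HDAC11.

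Replicate numbers come from the sample titles. Deviations of same-numbered libraries correlated above 0.1 in every pair for all pairings of WT, WT LPS, KO and KO LPS (lowest r 0.124). The block is therefore given beside the KO results whose call it changes. It is also given for HDAC6 in HA cells and for joint contrasts of HDAC6 and HDAC7. Pairings with HA or SA libraries did not stay above 0.1 in every pair.

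Members and lists were chosen with earlier results of these data known. Members called in any contrast were described in full, together with those of the largest mean LPS difference until 3 were named per class. Per partner list, up to 4 called genes a contrast were named, and their calls in single lines are given in part. Other genes named in a sentence were chosen after their values were seen. A further list of cell type markers is not reported here.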

Additional observations from a re-analysis of the deposited data

Results flagged for a closer look

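Single libraries lay far from the other 3 of their group for 14 of the 34 members, by Dixon's ratio of gap to range (95% limit 0.829 for 4 values). Of 272 groups tested 18 met this, and chance gives about 1 in 20. All values are normalized counts.

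SA LPS replicate 1 held KAT5 at 248 (others 580 to 624), NCOA3 at 263 (112 to 126), HDAC6 at 336 (131 to 152) and HDAC10 at 546 (70.7 to 93.1). In KO replicate 3, KAT2A stood at 127 (290 to 310) and HDAC6 at 418 (265 to 278). In KO LPS replicate 3, KAT8 stood at 226 (176 to 183), EP300 at 1491 (1377 to 1393) and HDAC5 at 180 (145 to 150). HA LPS replicate 1 held KAT7 at 712 (543 to 568) and HDAC11 at 70.6 (22.1 to 26.9).

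WT LPS replicate 3 held HDAC10 at 200.0 (68.6 to 90.8), SIRT6 at 574 (334 to 368) and BRD2 at 3630 (2806 to 2937), and WT replicate 3 held SIRT7 at 697 (451 to 470). Single entries were KAT5 at 594 in SA replicate 3 (531 to 540) and at 491 in KO LPS replicate 1 (757 to 807), and HDAC7 at 893 in WT LPS replicate 2 (1194 to 1246). The 4 libraries farthest from their groups over all genes held 11 of the 18 values.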

How the results depend on the processing

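No difference of HDAC6, HDAC7 or NCOA2 in KO, HA or joint contrasts changed sign under the alternatives run. Over all 34 members and 16 contrasts, the deposited scale changed the sign of 58 of 544 differences (up to 0.25 in size on the joint scale), leaving out the 4 farthest libraries 78 (up to 0.74), limma-voom 9, the TMM scale 3, a pseudocount of 5 only 1, and leaving out 1 library at a time 589 of 17408; none of the changed ones was called. The counts of members called for LPS, SA against WT and the interactions stayed at 0 under every alternative run. Fitting only the groups compared left 0 calls for HA against WT with and without LPS (main 1 each), for KO against WT with LPS (1) and for the joint contrast with LPS (2), and adding the replicate block to that fit left 0 for both HA contrasts, gave 1 for KO without and 3 with LPS (HDAC6, HDAC7, NCOA2) and 1 for the joint contrast with LPS. The block over all libraries gave 2 for KO with LPS and 3 for the joint contrast with LPS and changed no other count. Testing every gene with a read, with no filter, gave 0 for KO and HA with LPS and 1 for the joint contrast with LPS. The deposited scale, which moves the median of all genes against WT to -0.13 for KO, 0.12 for HA and 0.25 for SA without LPS (-0.10, 0.13 and 0.25 with LPS), gave 0 for KO with LPS and 2 for the joint contrast without LPS (HDAC1, HDAC6). A limit of 0.05 gave 1 for KO without and 3 with LPS, and 2 without and 3 with LPS for the joint contrast. Leaving out the 4 farthest libraries, chosen after seeing the data, gave 1 for KO without and 2 with LPS, 3 for HA without LPS (HDAC6, KAT2A, KAT6A) and 1 for the joint contrast with LPS. The TMM scale, a pseudocount of 5 and limma-voom on whole reads (added after seeing the data) changed no count; edgeR and DESeq2 fits on whole reads were planned and not run. Leaving out 1 library at a time gave 0 to 1 for KO and HA without LPS, 0 to 2 for KO and 0 to 1 for HA with LPS, and 1 to 2 for both joint contrasts. Apart from fewer samples or more genes tested, the cause of these changes was not tested. Same-numbered HA and WT libraries deviated alike in some replicates only (r -0.237 to 0.291 without and -0.33 to 0.352 with LPS). For SA and WT libraries r was -0.556 to 0.239 without and -0.411 to 0.418 with LPS. Whether the block is apt for these pairs was not tested. The counting SD was 0.31 for HDAC11, 0.26 for SIRT5 and 0.24 for KAT2B, against 0.53, 0.51 and 0.51 within groups.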
